A study of Mus musculus with 84 samples.

Results

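Lymphocyte genes were read in peak lists from mouse epididymal adipocyte nuclei: 39 genes that mark the T-cell, B-cell and natural killer (NK) lineages, of 21851 protein-coding genes of the annotation. They are lineage genes, proposed with earlier results of these data known, so counts over them are descriptions and not tests. Each was measured at its promoter, a window of 2000 bp on either side of each protein-coding transcription start site. For every promoter and library, the presence of a peak, the percent of the window that peaks covered and the width of the widest peak were recorded. The deposited peaks are the top 1% of enriched blocks of each library, so a promoter without a peak is not among them and is not shown to lack the mark. The genes fell into 7 classes by role, namely 7 genes of the T-cell receptor complex and its co-receptors, 7 of T-cell adhesion and costimulation, 2 cytokine receptors, 3 proximal signalling genes, 9 transcription factors, 6 B-cell genes and 5 cytotoxic and NK genes.

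The 84 libraries were made by CUT&Tag, in which an antibody against a histone mark guides an enzyme that cuts and tags the DNA beside it. All mice carried the AdipoERCre and NuTRAP alleles and had received tamoxifen, so an inducible Cre driven by the adiponectin promoter had labelled adipocyte nuclei with biotin before the diets began, and the nuclei were pulled down through that label. A nucleus of another cell type is not labelled in this design, and what else the pulldown carried is not given in the sources used here. Group C (chow, 18 weeks of age) was the control of H (high-fat diet for 12 weeks), and CC_s (chow, 26 weeks of age) was the control of HC, which had received the 12-week diet and then chow for 8 weeks. CC_l (chow, 31 weeks of age) was the control of HH (high-fat diet for 25 weeks), and CCC (chow, 39 weeks of age) was the control of HHC, which had received the 25-week diet and then chow for 8 weeks. Each group held 2 or 3 libraries per mark. The sources call replicates independent biological samples without naming the animals behind each library.

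T cells recognise antigen through a receptor complex whose CD3 chains pass the signal to the kinases Lck and Zap70 and the adaptor Lat, while B cells use an antigen receptor that signals through Cd79a and Cd79b. NK cells and cytotoxic T cells kill target cells with perforin and granzymes. Transcription factors such as Tcf7, Gata3, Tbx21 and Pax5 direct cells into these lineages, and several of them also act in the development of other tissues. Of the marks, H3K4me3 lies at the start sites of active or poised genes, H3K27ac marks regulatory DNA in use, H3K4me1 is typical of enhancers and of the flanks of promoters, and H3K27me3 is placed by Polycomb complexes at silent genes, often at CpG-rich promoters of developmental regulators. Lymphocytes are known residents of fat tissue, and adipocytes are not known to use antigen receptors.

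For 4 H3K4me3 libraries of the 25-week cohort the title and the treatment field of the labels named different groups. The titles were used here, and the treatment field would move CC_l replicate 2 to HH, HH replicate 2 to CCC, HH replicate 3 to CC_l and CCC replicate 3 to HH. Every H3K4me3 value of HH, CC_l and CCC below depends on that choice, while the libraries of HHC carry the same group in both fields. The lists held 11249 to 41976 peaks for H3K4me3, 21809 to 46397 for H3K27me3, 12174 to 41989 for H3K27ac and 14486 to 40682 for H3K4me1. For H3K27me3 and H3K27ac the peaks of H and HC were narrower than those of their controls. For H3K4me3 the median width was 850 to 1115 bp in H and 1439 to 1692 bp in C. It was 821 to 1130 bp in HC and 1115 to 1393 bp in CC_s. The H3K4me1 peaks of H were also narrower than those of C. H replicate 3 stood low for H3K4me3 and H3K27ac (11249 and 12174 peaks), as did CCC replicate 3 for H3K27ac (14917). The tissue label was checked on 10 adipocyte genes: in the chow libraries 9 to 10 carried H3K4me3 and all 10 carried H3K27ac, and in the diet libraries 6 to 10 carried either mark.

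Promoter letters are shown for 6 members on which the results turn, as the 250 bases before the RefSeq start site (build GRCm38.p6), with every CG dinucleotide in capitals because CpG-rich promoters are the usual place of H3K27me3. Tbx21 (chr11:97115332-97115581, minus strand), Pax5 (chr4:44710695-44710944, minus strand), Eomes (chr9:118477939-118478188, plus strand) and Ikzf1 (chr11:11685675-11685924, plus strand) encode transcription factors. Cd3d (chr9:44981536-44981785, plus strand) and Cd3g (chr9:44980432-44980681, minus strand) encode receptor chains, are transcribed away from each other and have start sites 1355 bp apart, so that their windows overlap and 1 peak can count for both.
Tbx21: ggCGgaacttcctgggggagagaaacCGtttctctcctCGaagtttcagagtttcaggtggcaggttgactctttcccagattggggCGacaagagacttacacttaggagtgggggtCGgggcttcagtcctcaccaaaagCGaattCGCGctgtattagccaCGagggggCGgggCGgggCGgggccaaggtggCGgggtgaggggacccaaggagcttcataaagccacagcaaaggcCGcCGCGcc
Pax5: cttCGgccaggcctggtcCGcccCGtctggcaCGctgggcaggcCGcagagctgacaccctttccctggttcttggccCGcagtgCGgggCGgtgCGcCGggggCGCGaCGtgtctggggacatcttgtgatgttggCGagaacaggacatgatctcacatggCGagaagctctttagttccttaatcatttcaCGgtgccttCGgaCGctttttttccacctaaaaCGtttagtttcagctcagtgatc
Eomes: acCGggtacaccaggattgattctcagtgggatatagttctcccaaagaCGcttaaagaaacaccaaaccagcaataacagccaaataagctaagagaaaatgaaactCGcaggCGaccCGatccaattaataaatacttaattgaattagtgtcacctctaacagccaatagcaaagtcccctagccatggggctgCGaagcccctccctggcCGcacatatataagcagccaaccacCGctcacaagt
Ikzf1: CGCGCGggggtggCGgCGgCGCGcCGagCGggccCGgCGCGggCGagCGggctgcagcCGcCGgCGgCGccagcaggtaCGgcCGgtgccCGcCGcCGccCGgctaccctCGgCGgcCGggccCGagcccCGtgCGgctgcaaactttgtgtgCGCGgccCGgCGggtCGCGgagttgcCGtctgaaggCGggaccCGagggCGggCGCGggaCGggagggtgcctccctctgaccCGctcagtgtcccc
Cd3d: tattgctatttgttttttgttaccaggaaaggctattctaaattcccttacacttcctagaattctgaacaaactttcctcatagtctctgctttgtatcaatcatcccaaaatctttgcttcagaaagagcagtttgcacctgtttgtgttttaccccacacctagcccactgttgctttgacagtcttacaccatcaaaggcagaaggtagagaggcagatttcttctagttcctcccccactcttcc
Cd3g: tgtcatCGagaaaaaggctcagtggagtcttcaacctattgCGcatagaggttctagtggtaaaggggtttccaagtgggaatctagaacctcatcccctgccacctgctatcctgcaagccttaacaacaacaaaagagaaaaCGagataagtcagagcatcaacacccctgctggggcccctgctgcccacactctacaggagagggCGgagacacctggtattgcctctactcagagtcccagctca

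H3K4me3 was found at more lymphocyte promoters in HHC than in any other group. The 3 HHC libraries had a peak at 35, 27 and 28 of the 39 promoters, and the 2 CCC libraries at 8 and 7. HH came next, with 17 and 16 promoters against 9 and 8 in CC_l. In the 12-week cohort, HC libraries had 5, 4 and 13 against 2, 0 and 3 in CC_s, and H libraries had 5, 6 and 1 against 8, 9 and 6 in C. Diet minus chow therefore came to 22.5 promoters for HHC, 8.0 for HH, 5.67 for HC and -3.67 for H, beside a standard deviation of 2.66 promoters within groups. The share of all 21851 promoters with H3K4me3 was close between HHC (62.5% to 66.0%) and CCC (62.5% to 63.1%), while in the low library H replicate 3 it was 41.7%. In the 12-week cohort this share also differed, by 4.33 points for HC minus CC_s and by -8.01 points for H minus C.

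**Figure D1:**
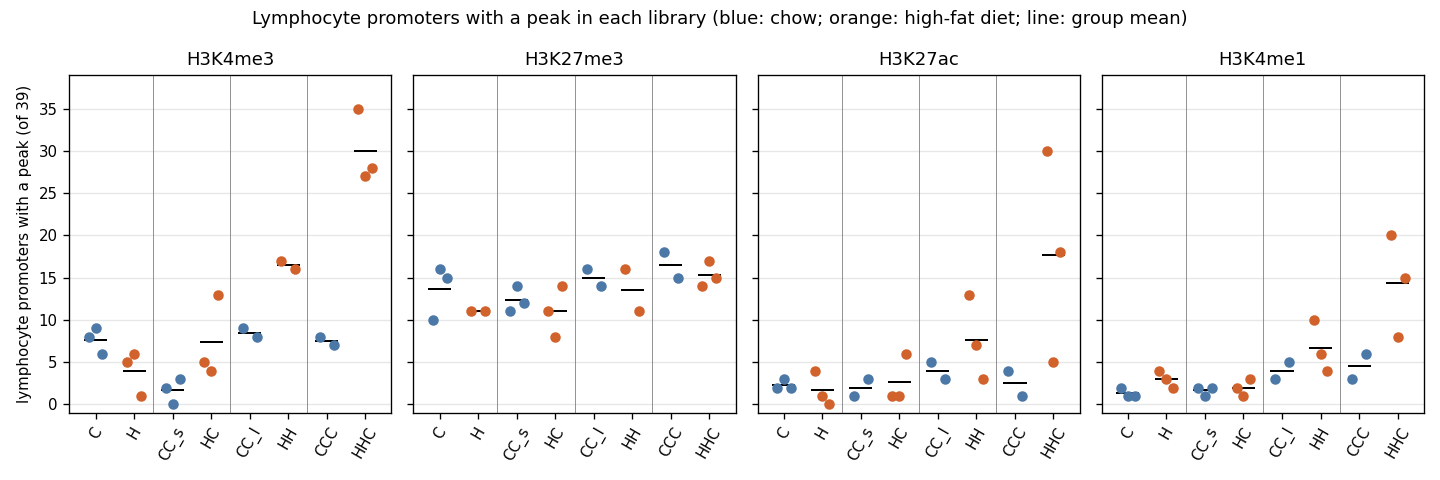
Number of the 39 lymphocyte promoters with a peak (vertical axis) in each library, by group (horizontal axis) and mark (panels); points are libraries, blue for chow and orange for high-fat diet, lines are group means, and grey verticals separate the 4 age-matched comparisons. For H3K4me3 the HHC libraries lie at 27 to 35 and the CCC libraries at 7 and 8, while for H3K27me3 the libraries lie at 8 to 18.

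A promoter was called gained when every library of the diet group and no library of its control had a peak. In HHC against CCC, 16 of the 39 members were gained for H3K4me3, where 1.39% of all promoters were, and none was lost. They were the receptor chains Cd3d, Cd3g and Cd247, the adhesion and costimulation genes Cd2, Cd28 and Ctla4, the interleukin receptor Il2rb, the adaptor Lat, the transcription factor Tbx21, all 6 B-cell genes (Cd79a, Cd79b, Ms4a1, Pax5, Blk and Cd22) and the cytotoxic granule gene Nkg7. In HH against CC_l, 5 members were gained (Cd2, Cd6, Cd79a, Cd79b and Pax5) beside 1.32% of all promoters. No member was gained in H or HC, and 1, Eomes, was lost in H beside 1.71% of all promoters. With the groups of the treatment field, the members gained fell to 7 in HHC (Cd247, Cd28, Ctla4, Il2rb, Lat, Blk and Cd22), beside 0.426% of all promoters, and to 0 in HH, beside 0.636%, where HH minus CC_l came to -5.0 promoters.

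Peak number is part of what these counts measure. With each library cut to its strongest peaks, as many as the poorest library of the comparison held (33990 in HHC and CCC), HHC libraries still had 24 to 35 marked lymphocyte promoters against 7 to 8 in CCC, and 11 members were gained (1.18% of all promoters). Cut in the same way, diet minus chow came to 20.5 promoters for HHC, 6.5 for HH, 1.0 for HC and -1.33 for H. With all H3K4me3 libraries cut to the 11249 peaks of the poorest, HHC libraries had 3 to 22 against 2 to 3 in CCC, and only Lef1 was gained (1.22% of all promoters). By total signal, the median marked lymphocyte promoter of HHC lay at the 76.1, 46.2 and 51.0 percentile of its library's peaks, and the median of all marked promoters at 79.9, 82.5 and 82.0.

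By class, the chains of the T-cell receptor complex and its co-receptors had H3K4me3 in few libraries other than HHC. Cd3d and Cd3g each had it in 4 of 21 libraries, the 3 of HHC and HH replicate 2, and Cd247 in the 3 of HHC. Cd3e and Cd4 had it in 2 HHC libraries, Cd8a in 1, and Cd8b1 in none of the 21. At Cd3d, whose letters contain no CG, peaks covered 85.2%, 47.4% and 21.2% of the window in HHC replicates 1, 2 and 3, 51.5% in HH replicate 2 and 0.0% in every chow library. The window of Cd3g, which shares these peaks, was covered to 100%, 23.6% and 21.2%, so these 2 genes are not independent. Replicate 1 was the highest HHC library at 6 of the 7 genes, all but Cd8b1.

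Among adhesion and costimulation genes, Cd2, which binds its partner on other leukocytes, had H3K4me3 in 9 of 21 libraries. Its window was covered to 80.6%, 68.3% and 71.2% in HHC, 35.4% and 31.4% in HH and 0.0% in all CC_l, CCC, CC_s and H libraries. In C it was covered to 22%, 32.4% and 0.0%, and in HC to 26.3%, 0.0% and 20.5%. The 25-week groups did not overlap and the 12-week groups did, and the mean difference was 53.4 points in the 25-week cohort and -1.28 points in the 12-week cohort. Cd28, the main costimulatory receptor of T cells, was covered to 71.2%, 27.9% and 25.4% in HHC, 28.6% in HH replicate 3, 19.5% in H replicate 1 and 0.0% in all 10 chow libraries. Cd6 had peaks in HHC replicates 1 and 3 (61.1% and 45.8%) and in both HH libraries (29.9% and 38.4%), and was at 0.0% in all other libraries. Of the other members of the class, Cd27, a receptor of the tumour necrosis factor family, had H3K4me3 in 11 libraries, Ctla4 in 3, Cd5 in 2 and Icos in 1.

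Of the cytokine receptors, Il7r had H3K4me3 in 4 libraries and Il2rb in 3. Of the proximal signalling genes, Lck had it in 18, Lat in 3 and Zap70 in 2. Lck has 3 start sites, and its window was covered to 8.19% to 20.1% in every marked chow, H and HC library to 38.6% and 18.7% in HH and to 82.2%, 40.6% and 85.5% in HHC. Only 6 of its 18 libraries had a peak within 500 bp of a start site.

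All 6 B-cell genes had H3K4me3 in all 3 HHC libraries and, apart from Ms4a1 and Pax5, in no chow library. Cd79a and Cd79b, the signalling chains of the B-cell receptor, each had peaks in the 3 HHC and the 2 HH libraries and in none of the other 16. Cd79a was covered to 74.4%, 26.5% and 74.2% in HHC and to 41.8% and 15.3% in HH. Cd79b was covered to 63.0%, 22.4% and 28.8% in HHC and to 42.1% and 46.4% in HH. The gain at both genes thus appeared in the obese mice and in the mice returned to chow, with the reservation on HH given above. Pax5, the factor that fixes B-cell identity, was covered to 44.8%, 50.5% and 29.5% in HHC, 0.686% and 60.5% in HH and 24.6% in C replicate 3, so the call in HH rests on a very small overlap in HH replicate 2. Ms4a1 had peaks in 8 libraries, Blk in 3 and Cd22 in 3.

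The cytotoxic and NK genes had H3K4me3 least often. Prf1 and Ncr1, which encode perforin and an NK-cell receptor, had no H3K4me3 peak in any of the 21 libraries, Gzmb had it in 1 and Gzma in 2. Nkg7 was covered to 88.1%, 59.5% and 54.6% in HHC, 23.8% and 0.0% in HH, 23.3% in CC_l replicate 1 and 13.3% in HC replicate 3. Its window also overlaps that of Cldnd2, which had H3K4me3 in all 21 libraries, with the nearest start sites 3652 bp apart, so a wide peak can reach both.

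**Figure D2:**
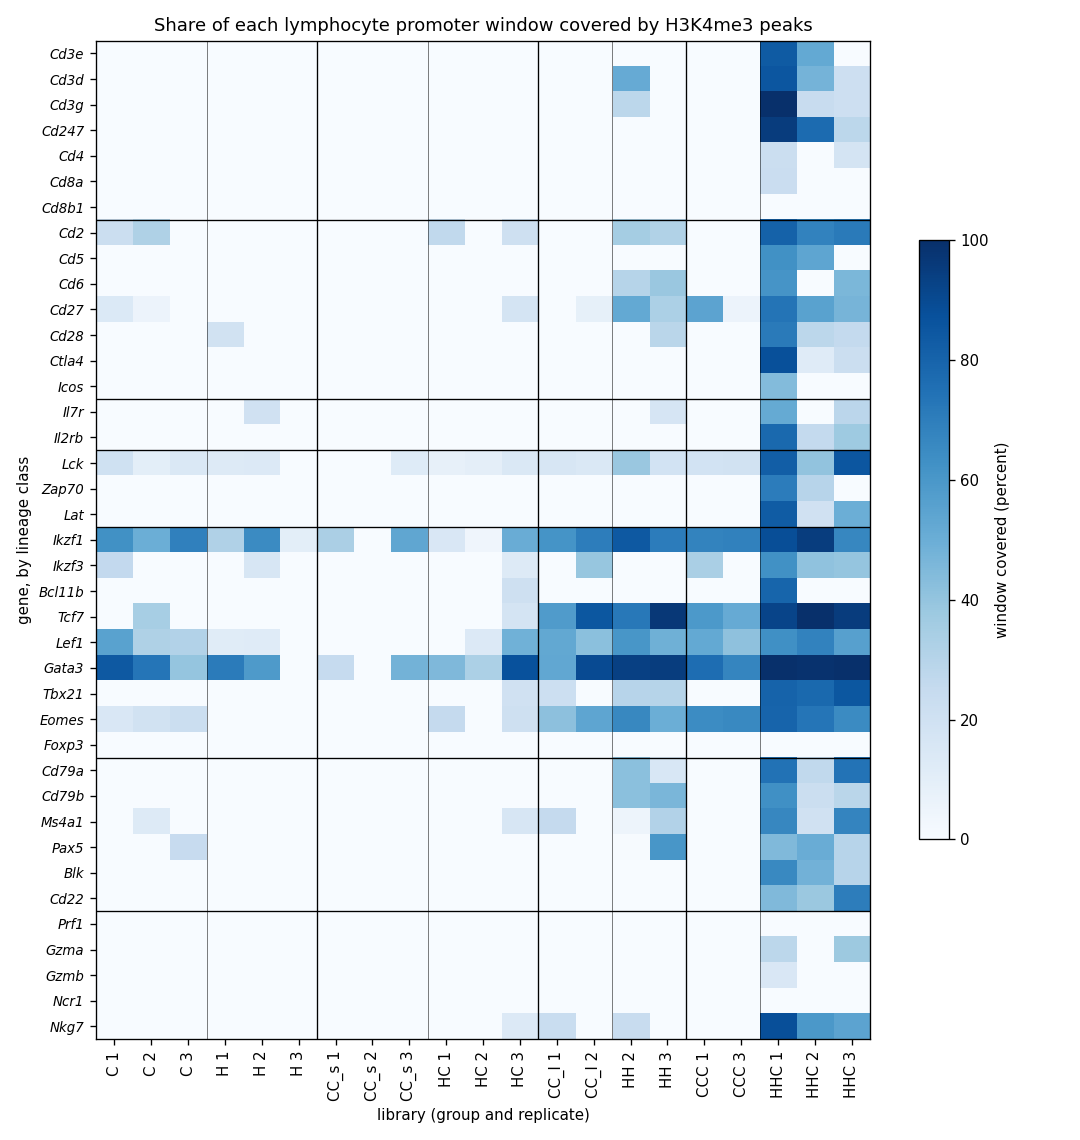
Percent of the promoter window covered by H3K4me3 peaks (colour, 0 to 100) for each of the 39 lymphocyte genes (rows, in blocks by lineage class) in each of 21 libraries (columns, in blocks by comparison, groups from titles). The 3 HHC columns hold most of the dark cells, while Ikzf1 and Gata3 are covered in 20 and 19 of the 21 libraries.

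Of the transcription factors, 2 had H3K4me3 in nearly all libraries. Ikzf1, which acts across the blood lineages, had H3K4me3 in 20 of 21 libraries, with a mean cover of 54.9% on diet and 55.9% on chow, and Gata3 in 19 (73.1% on diet, 58.2% on chow). Lef1 had it in 16, Eomes in 14, Tcf7 in 11, Ikzf3 in 8, Tbx21 in 7 and Bcl11b in 2. Foxp3, the factor of regulatory T cells, had none of the 4 marks in any library. Tbx21, which directs T helper and NK cell programmes, was covered to 80.2%, 78% and 85.1% in HHC and 0.0% in both CCC libraries. It was covered to 29.5% and 29.7% in HH, to 21.7% and 0.0% in CC_l, and to 19.8% in HC replicate 3 alone of the 12 libraries of the 12-week cohort. The 3 HHC values lay far above those of every other library.

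The exact permutation test of window cover, two-sided over all 4 comparisons and adjusted over all genes by the Benjamini-Hochberg method, called no promoter for H3K4me3. None of the 39 members was higher or lower at an adjusted p under 0.05, and neither was any other gene (0.0% in each direction). At an unadjusted p under 0.05, 5 members were higher (Cd2, Cd28, Tbx21, Cd79a and Cd79b) beside 2.87% of all genes, and no member was lower beside 4.45%. Cd2 was 26.0 points higher on diet (exact p = 0.0172, adjusted p = 0.468) and Tbx21 26.6 points (exact p = 0.00833, adjusted p = 0.406). Over the 39 members the median difference was 11.7 points, and over all genes 0.0. The smallest p that the 24000 arrangements can give is 4.17e-05. A promoter with peaks only in the 25-week cohort, such as Cd79a, had only 60 distinct arrangements, with a smallest p of 0.0167. A promoter with peaks in HHC alone, such as Cd247, Il2rb, Lat, Blk or Cd22, had fewer and could not reach 0.05. For the latter the lack of a call was fixed in advance, and this limit held for the other marks too. For promoters with peaks only in the 25-week cohort, an exact p of 0.0167 could not pass the adjustment either. Too few genes, 2.87% and 4.45%, had an unadjusted p under 0.05. The lack of a call says nothing about these promoters. With the groups of the treatment field the exact p of Cd2, Cd28, Tbx21, Cd79a and Cd79b were 0.25 to 0.85, and Cd79b turned to -1.55 points.

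Genes of other blood cells were also more often marked in HHC and HH than in their controls. Of 15 macrophage and pan-leukocyte genes, 14 had H3K4me3 in each of the HHC libraries and 14 and 15 in HH, against 10 and 4 in CCC and 6 and 6 in CC_l. In H, where lymphocyte promoters were not more often marked than in C, replicates 1 and 2 had 13 and 14 of the 15 and replicate 3 had 0, against 6 to 8 in C. In HC replicate 3, the HC library with most lymphocyte promoters (13), 11 of the 15 were marked, against 1 and 3 in the other HC libraries. Of the 15, 4 were gained in HHC and 7 in HH (1.39% and 1.32% of all promoters). The share of lymphocyte promoters therefore did not follow the macrophage list in every group. The 34 further lymphocyte genes, other members of the same pathways, had H3K4me3 at 31, 19 and 21 promoters in HHC and at 7 and 6 in CCC, and 11 of them were gained (1.39% of all promoters), among them Ccr7, Il2rg, Pou2af1 and Cd37. At an unadjusted p under 0.05, 11 of the 34 were higher on diet and 0 lower (2.87% and 4.45% of all genes), and at an adjusted p under 0.05 none was called. HHC libraries had 5 to 7 of the 7 endothelial genes against 3 and 3 in CCC, and HHC replicate 3 had only 6 of the 10 adipocyte genes. In material from many nuclei, more nuclei of another type and more of a mark per nucleus cannot be told apart, and the part of these lists in the lymphocyte counts was not tested.

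**Figure D3:**
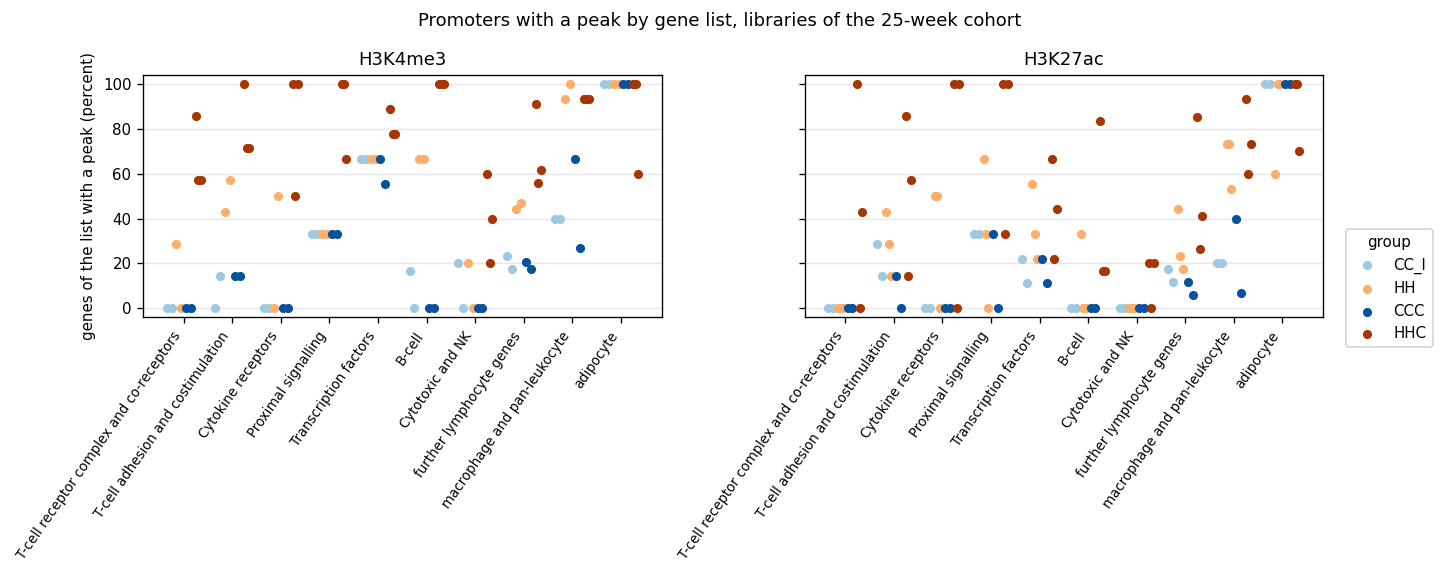
Percent of the genes of each list with a peak (vertical axis) in each library of the 25-week cohort, by list (horizontal axis) and group (colour), for H3K4me3 (left) and H3K27ac (right). In HHC the B-cell list is at 100% for H3K4me3 in all 3 libraries and at 0% in both CCC libraries, and the 3 HHC libraries spread widely for H3K27ac.

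H3K27me3, the Polycomb mark, was present in at least 18 of 20 libraries at 8 members, which were 7 of the 9 genes of the transcription factor class and Pax5. Lef1, Gata3, Eomes and Pax5 had it in all 20 libraries, Ikzf3 and Bcl11b in 19, and Tcf7 and Tbx21 in 18, whereas 12 members had it in none: Cd8a, Cd2, Cd27, Cd28, Ctla4, Icos, Il7r, Lck, Lat, Foxp3, Cd79a and Ms4a1. The other 19 members lay between, with Cd3e in 14, Cd22 in 13, Cd3g in 11, Ikzf1 in 10 and Cd3d in 9 libraries. The number of marked lymphocyte promoters ranged from 10 to 18 in the chow libraries and from 8 to 17 in the diet libraries, and the mean difference over the 4 comparisons was -1.67 promoters, with all 4 below 0 (-2.67, -1.33, -1.5 and -1.17) and a standard deviation of 2.32 promoters between libraries of a group.

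What differed was how much of the window the mark covered. Tbx21 was covered to 71.9%, 78.7% and 57.5% in C and to 12.4% and 0.0% in H. In the next comparison CC_s had 69.7%, 92.0% and 70.5% and HC had 58.6%, 0.0% and 60.4%. In the 25-week cohort CC_l had 94.2% and 100%, HH 100% and 100%, CCC 92.6% and 100%, and HHC 14.4%, 43.3% and 0.5%. The diet libraries thus lay below their controls without overlap in 3 of the 4 comparisons, and not in HH. The mean difference was -43.7 points (exact p = 0.0005), and with an adjusted p of 0.0513 it missed the threshold. Tested only among genes with a peak in at least 3 libraries, Tbx21, Lef1 and Gata3 passed it (exact permutation test, adjusted p of 0.0158, 0.0201 and 0.0448). Without HHC replicate 2 both Tbx21 and Lef1 passed over all genes (adjusted p of 0.0499 and 0.0419), as did Lef1 without CCC replicate 3 (0.0495). No member passed with any other single library left out. The filter left each exact p as it was and changed only the number of genes adjusted for. The share of all genes called in these settings is not given, so these calls cannot be read as a result about the members. The 0.837% of all genes called lower in the main test is not that share. In HHC the low H3K27me3 cover of Tbx21 stood beside the highest H3K4me3 cover of that promoter in any group, measured in separate libraries.

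Other factors followed in the 12-week cohort. Lef1, a partner of the Wnt pathway, was covered to 91.2%, 100% and 100% in C and 39.1% and 39.9% in H, and to 87.2%, 98.7% and 100% in CC_s and 77.0%, 15.0% and 43.5% in HC. In the 25-week cohort its cover was 86.3% to 100% in all 9 libraries, and the mean differences were -53.9 points in the 12-week and -3.34 points in the 25-week cohort (over all 4 comparisons exact p = 0.001, adjusted p = 0.0654). Gata3 was 26.3 points lower on diet by the permutation test (exact p = 0.005, adjusted p = 0.145), with differences of -43.8 and -8.91 points in the 2 cohorts. Bcl11b, Pax5 and Eomes were lower by 28.8, 24.4 and 20.1 points (exact p of 0.0118, 0.007 and 0.00675), again mostly in the 12-week cohort. Peaks of all kinds were narrower there: the median H3K27me3 peak was 549 to 592 bp wide in H and 1242 to 1425 bp in C, and 332 to 914 bp in HC and 1097 to 1175 bp in CC_s. After cover was divided by the library's mean cover of marked promoters, Tbx21 had an exact p of 0.0158 (adjusted p = 0.382) and Bcl11b of 0.0169 (adjusted p = 0.389), while Lef1 had 0.162 and Gata3 0.856, and Eomes and Pax5 turned to slightly higher on diet.

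By the permutation test no member passed an adjusted p under 0.05 for H3K27me3, while 0.0137% of all genes were called higher and 0.837% lower. At an unadjusted p under 0.05, 6 members were lower (Tbx21, Lef1, Gata3, Eomes, Pax5 and Bcl11b) beside 7.22% of all genes, and none was higher beside 1.47%. Il2rb, a shared chain of interleukin receptors, was gained in HHC (1.37% of all promoters), with covers of 50.0%, 21.9% and 28.3% against 0.0% and 0.0% in CCC, and it also gained H3K4me3 there. Zap70 was lost in HHC (0.732% of all promoters), from 19.7% and 4.8% in CCC to 0.0% in all 3 libraries. Both calls rest on 5 libraries each.

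**Figure D4:**
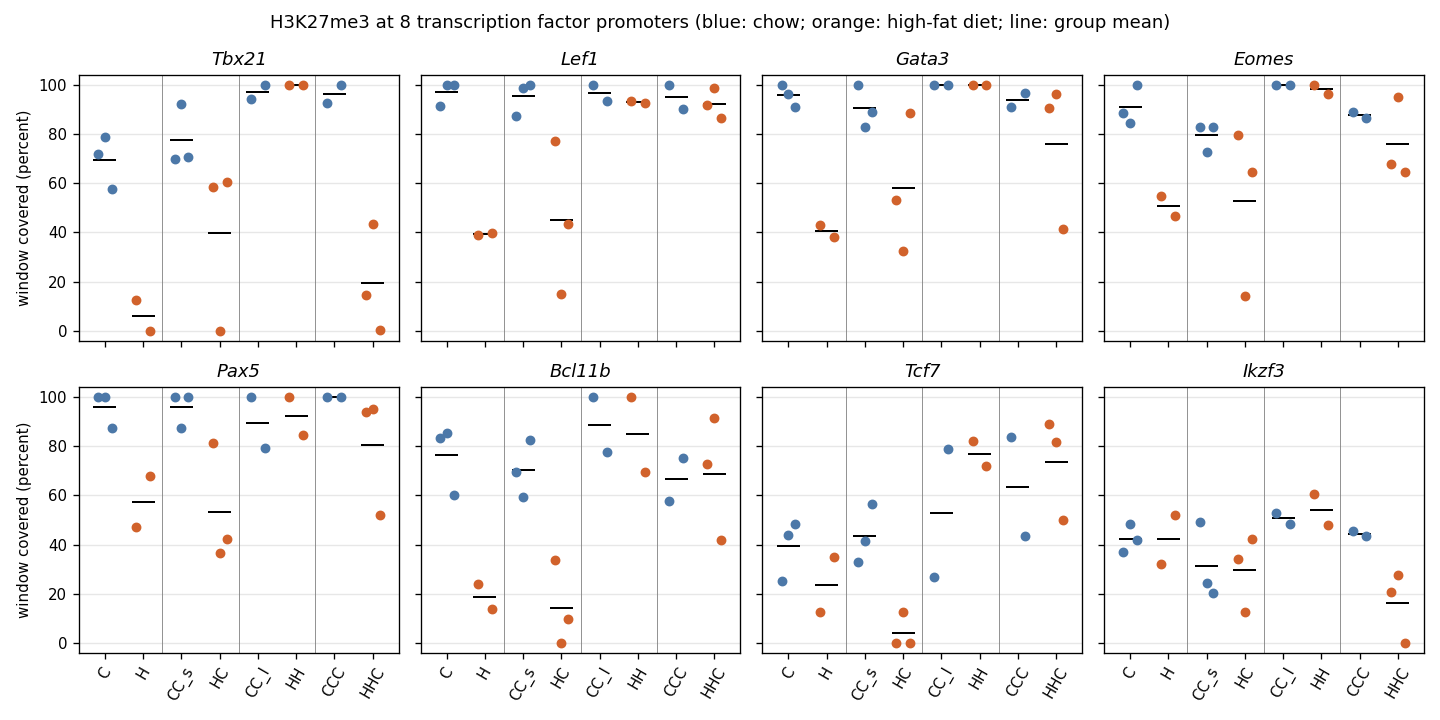
Percent of the promoter window covered by H3K27me3 peaks (vertical axis) at 8 transcription factor genes (panels) in each of 20 libraries, by group (horizontal axis); blue is chow, orange is high-fat diet and lines are group means. Tbx21 is at 0.5% to 43.3% in HHC and at 92.6% to 100% in CCC, while Lef1 differs between diet and chow only in the groups of the 12-week cohort.

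The promoter letters, which the choice of genes did not use, were set beside these counts. RefSeq promoters were at hand for 28 of the 39 members, and not for Cd4, Cd8b1, Cd2, Cd6, Cd28, Icos, Il2rb, Ikzf3, Cd79b, Ms4a1 and Blk. The 28 had a median of 5.5 CG dinucleotides in the 250 bases before the start (the richest entry of each gene), against 11 over 16515 genes, and 6 of them (21.4%) had at least 10, against 54.9% of all genes. Those 6 were all transcription factors: Ikzf1 with 44, Tcf7 with 37, Gata3 and Pax5 with 19 each, Tbx21 with 16 and Lef1 with 14. The 7 members with H3K27me3 in at least 18 libraries had 8 to 37, with a median of 16, and the 8 with H3K27me3 in no library had 0 to 7, with a median of 5.5. The 13 members between, with H3K27me3 in 1 to 17 libraries, had 0 to 44 and the lowest median, 3.0. Over all genes the corresponding medians were 14, 13 and 8.0. Ikzf1, the richest, had H3K27me3 in 10 libraries and H3K4me3 in 20.

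**Figure D5:**
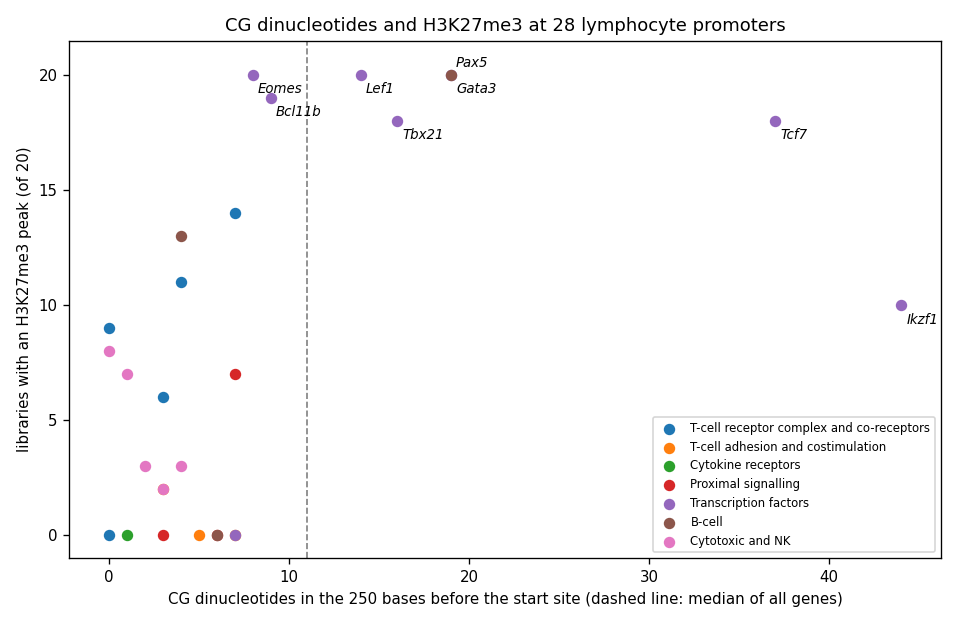
Number of libraries with an H3K27me3 peak (vertical axis, of 20) against the number of CG dinucleotides in the 250 bases before the start site (horizontal axis) for 28 lymphocyte genes, coloured by lineage class, with names for genes of at least 8. The genes above 10 all encode transcription factors, Pax5 among them, and Ikzf1 with 44 has the mark in only 10 libraries.

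H3K27ac was rare at lymphocyte promoters in chow libraries and uneven in HHC. Chow libraries had 1 to 5 marked members, mostly Ikzf1, Cd27 and Lck. HHC replicates 1, 2 and 3 had 30, 5 and 18, and CCC replicates 1 and 3 had 4 and 1, so the groups did not overlap but HHC replicate 2 lay next to CCC. HH libraries had 13, 7 and 3 against 5 and 3 in CC_l. HHC replicate 1 had H3K27ac at all 7 genes of the T-cell receptor complex and its co-receptors, replicate 2 at none and replicate 3 at 3 (Cd3d, Cd3g and Cd247). Replicate 1 was also the highest HHC library for H3K4me3 (35 members) and H3K4me1 (20), and replicate 2 the lowest for all 3 marks. The study describes the marks as made from the same fat depot, so libraries of a replicate number may share a mouse across marks. No member was gained for H3K27ac, beside 2.32% of all promoters, and without replicate 2 the count was 14 of 39, beside 4.71%. With all H3K27ac libraries cut to the 12174 peaks of the poorest, HHC libraries had 2 to 17 marked members against 1 in each CCC library, and the difference fell from 15.2 to 7.33 promoters. The share of all promoters with H3K27ac was 52.3% to 53.6% in HHC and 50.8% and 17.7% in CCC, and macrophage and pan-leukocyte genes had it at 14, 9 and 11 of 15 in HHC and at 6 and 1 in CCC.

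Gata3 was the only member with an unadjusted p under 0.05 for H3K27ac, 29.4 points higher on diet (exact p = 0.032, adjusted p = 0.682), beside 2.67% of all genes. No member was lower, beside 3.53%. By the same permutation test no gene at all passed the adjusted threshold (0.0% in each direction). Cd27, which had H3K27ac in 15 libraries, was lost in H (1.94% of all promoters): its window was covered to 5.2%, 8.82% and 12.1% in C and to 0.0% in all 3 H libraries. Those peaks of C were 4438 to 4599 bp wide, so they lay mostly outside the window, and just 6 of the 15 libraries had a peak within 500 bp of a Cd27 start site. Over the 4 comparisons Cd27 differed by 2.64 points (exact p = 0.836), and this sign was not stable. No H3K27ac was found at Cd28, Bcl11b, Eomes, Foxp3, Pax5, Prf1, Gzma, Gzmb and Ncr1 in any of the 21 libraries.

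H3K4me1 was also most frequent at lymphocyte promoters in HHC. HHC libraries had 20, 8 and 15 marked members against 3 and 6 in CCC, HH had 10, 6 and 4 against 3 and 5 in CC_l, and the 12-week groups had 1 to 4. With all H3K4me1 libraries cut to the 14486 peaks of the poorest, HHC libraries had 3 to 7 against 2 to 3 in CCC, and the difference fell from 9.83 to 3.17 promoters. The share of all promoters with H3K4me1 also differed, at 41.4% to 51.4% in HHC and 31.5% to 37.9% in CCC. Cd28 was the only member gained in HHC (3.98% of all promoters), with covers of 42.1%, 35% and 52.1% against 0.0% and 0.0% in CCC. This call ended with equal peak numbers. There the only gain was Gata3 in HH (all libraries alike, beside 1.3% of all promoters) or Eomes in HHC (within each comparison, beside 2.7%). Over the 4 comparisons Cd28 was 15.2 points higher (exact p = 0.03, adjusted p = 0.502). Gata3, which directs T helper cells and innate lymphoid cells and is also known from other tissues, was covered to 96.9%, 94.4% and 100% in HHC against 45.2% and 69.4% in CCC, and to 83%, 87.5% and 96.4% in HH against 31.9% and 55.2% in CC_l. It was 23.7 points higher on diet (exact p = 0.002, adjusted p = 0.253), and 42.6 points in the 25-week cohort against 4.78 in the 12-week cohort. These 2 members were the only ones higher at an unadjusted p under 0.05, beside 5.81% of all genes, and none was lower, beside 2.22%. The permutation test called no gene at the adjusted threshold (0.0% in each direction).

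Gata3 was the member with an unadjusted p under 0.05 for most marks, higher on diet for H3K27ac and H3K4me1 and lower for H3K27me3, while for H3K4me3 it differed by 14.9 points (exact p = 0.167). The marks were read in separate libraries, and its window overlaps that of 4930412O13Rik, whose start site lies 2652 bp away. At the other end, Foxp3 had no mark in any library, Ncr1 had only H3K27me3 (8 libraries), and Prf1 had H3K27me3 in 3 libraries and H3K4me1 in 1. Cd8b1 had H3K27me3 in 6 libraries and H3K27ac in 1, and its window overlaps that of Smyd1, 555 bp away.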

How the data were processed

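CUT&Tag libraries of H3K4me3 (21), H3K27me3 (20), H3K27ac (21) and H3K4me1 (22) from bead-purified adipocyte nuclei were used. The authors trimmed reads with Trim Galore 0.6.6, aligned them to mm10 (GRCm38) with Bowtie2 2.4.4, processed them with SAMtools 1.13 and bedtools 2.30, and called peaks in each library with SEACR 1.3, keeping the top 1% of enriched blocks. The deposited lists give the position and the total and maximum signal of each peak, where signal is read coverage summed over the block, with no read counts and no library depth. Depth is therefore unknown, no counting interval can be given and no count model was run. Precision rests on the 2 or 3 libraries per group.

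From these lists, a promoter was marked when at least 1 bp of any window (2000 bp either side of each protein-coding start site, GENCODE M21) was covered. Per gene and mark, the statistic was diet minus chow cover averaged over 4 age-matched comparisons, tested by an exact two-sided permutation within comparisons with Benjamini-Hochberg adjustment over 21851 genes (threshold 0.05; Python 3.11.15, numpy 2.4.6, pandas 2.3.3, scipy 1.17.1, matplotlib 3.10.9). The procedure was tested on simulated normal values for genes with a peak in at least 3 libraries, with changes added to all diet groups. Cover that is 0 in most libraries, as at many members, was not simulated. Values are given per mark for at most 8 members: adjusted p under 0.05 first, then those gained or lost in most comparisons, then those of lowest unadjusted p, and besides these the members marked in all or all but 2 libraries. Cd3d, Cd3g and Lck were added for H3K4me3 after their values were seen. The members, lists and tests were chosen with earlier results of these data known. Alternatives were a 500 bp window, equal peak numbers, at least 200 bp covered, the 5-prime-most start site, other test values, a filter on genes with few peaks, groups of the treatment field, a replicate block, and leaving out each library. Promoter letters came from RefSeq (GRCm38.p6), for 28 members.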

Additional observations from a re-analysis of the deposited data

How the results depend on the processing

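Peak lists hold no counts, so what limits these values is the number of libraries and of peaks called. In the main analysis the mean difference in marked lymphocyte promoters was 8.12 for H3K4me3, with 21 promoters gained over the 4 comparisons and 1 lost. These became 1.75 and 1 gained with all libraries at an equal number of peaks, 3.62 with 7 gained and 3 lost with the treatment field, 3.33 with 5 gained without the HHC and CCC libraries, 13 gained in a 500 bp window, and 0 lost with equal peak numbers within each comparison. The settings without HHC and CCC, with equal peak numbers within comparisons, with relative cover and by cohort were chosen after seeing the data. The share of all promoters called in each setting is not given in this section. A changed count here therefore cannot be read as a result about the members. For H3K27me3 (1 gained and 1 lost) the 500 bp window gave 0 gained and 3 lost, equal peak numbers 0 and 4, at least 200 bp covered 0 lost, leaving out HHC and CCC 0 and 0, and equal numbers within comparisons 2 lost, while 3 members were called lower (0 in the main analysis) among genes with a peak in at least 3 libraries. For H3K27ac (0 gained and 1 lost) the 500 bp window gave 2 gained and 0 lost, both equal-number settings 3 lost, and the 5-prime-most start site 1 gained. For H3K4me1, 1 gained (Cd28) became 0 without HHC and CCC, and with equal peak numbers the 1 gained was Gata3 (all libraries) or Eomes (within comparisons). Signs turned for Cd79b with the treatment field (-1.55 points), for Cd2 (-1.28) and Pax5 (-4.11) for H3K4me3 in the 12-week cohort, for Zap70 in the 500 bp window (1.44), for Il2rb without HHC and CCC (-3.75) and for Eomes (0.0733) and Pax5 (0.0888) with relative cover of H3K27me3. Cd27 for H3K27ac turned to -3.67 with equal peak numbers, -29.2 for presence, -941 bp for the widest peak, -7.42 without HHC and CCC and -1.64 in the 12-week cohort, and without single libraries it ranged from -5.53 (CC_l replicate 2 left out) to 10.8, being also below 0 without HH replicate 1 (-0.972), CCC replicate 3 (-4.66) or HHC replicate 1 (-2.1). With each library left out in turn, the mean difference for H3K4me3 ranged from 7.42 to 8.54, promoters lost from 1 to 3 for H3K4me3, from 1 to 4 for H3K27me3 and from 1 to 2 for H3K27ac, and promoters gained from 1 to 3 for H3K27me3, from 0 to 14 for H3K27ac (14 without HHC replicate 2) and from 1 to 4 for H3K4me1. Members called lower for H3K27me3 ranged from 0 to 2 (2 without HHC replicate 2). The deviations of same-numbered libraries had a correlation over 0.1 in 0 of 9, 1 of 8, 3 of 9 and 2 of 10 pairs for H3K4me3, H3K27me3, H3K27ac and H3K4me1. In a group of 2 libraries the deviations are equal and opposite, so this check cannot show that pairing is absent. A replicate block gave mean differences of 8.75, -0.833, 6.46 and 4.75 promoters and called no member. It allows few arrangements: for H3K27me3, Lef1 had its smallest possible exact permutation p, 0.00781, and still an adjusted p of 0.587. A call over all genes was therefore nearly out of reach, and its absence says little. The causes of these changes were not tested.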
